A study of Mus musculus with 2 samples.

Results

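Itga2b and 6 other integrin genes of endothelium, Itgb3, Itgav, Itga9, Itgb1, Itga5 and Itga6, were followed across the cells of mouse mandibular lymph nodes. The 7 genes, of 27933 gene symbols in the count tables, were listed by name. Itga2b was selected on its higher level in lymphatic cells after haemorrhage in these same data, and the other chains were listed with earlier results known, so their values are descriptions that no test supports. Integrins are surface receptors made of 1 alpha and 1 beta chain that hold cells to matrix proteins and to other cells. The alphaIIb chain encoded by Itga2b pairs with beta3 (Itgb3) into the fibrinogen receptor of platelets and is also known on the lymphatic endothelium of lymph node sinuses, where it has been used to mark cells that respond to the cytokine RANKL. The alpha9 chain with beta1 binds tenascin, fibronectin and EMILIN1 and is needed for lymphatic valves, alpha5 with beta1 is the main fibronectin receptor, alpha6 serves laminin, and alphav can pair with several beta chains.

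The study compared mice after subarachnoid haemorrhage (SAH), bleeding into the space around the brain brought about by infusion of the animal's own blood, with mice after a sham operation. Mandibular nodes were taken 24 h later, the cells of 20 mice per group were pooled, CD45-bearing cells were depleted and cells that bound anti-CD31 or anti-podoplanin were retained on magnetic beads. The labels give no strain, age, sex or genotype. Each group is 1 droplet library, so nothing here could be tested over replicates: each value compares these 2 libraries, not the conditions.

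Levels are given as CPM, the UMIs of a gene summed over the cells of a class and scaled to 1000000 UMIs of that class, where a UMI marks 1 captured RNA molecule. A fold is the SAH level over the sham level. Square brackets hold exact 95% intervals that cover counting error only. The sham library gave 13952 barcodes and 72860197 UMIs, and the SAH library 13766 barcodes and 78497486 UMIs. Barcodes with at least 500 genes and at most 10% mitochondrial UMIs numbered 11157 in sham and 11454 in SAH, with medians of 5039 and 5747 UMIs. The kept libraries shared 49 barcode sequences.

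Lymphatic endothelial cells (LEC), which line the lymph-filled sinuses, were taken as cells with a UMI of Prox1, which encodes the master regulator of the lymphatic fate. They numbered 2364 in sham and 2562 in SAH, with medians of 6872 and 8193 UMIs. Blood endothelial cells (BEC; Pecam1 and Ly6c1 or Flt1, no Prox1) numbered 6329 and 6480. Fibroblastic stroma (at least 3 UMIs of Dcn and Col3a1, no Pecam1 or Prox1) numbered 1532 and 1631. The labels call the samples lymphatic endothelium, whereas LEC made up 21.2% and 22.4% of the kept barcodes. Of the lymphatic genes outside the gate, Mmrn1, an adhesive glycoprotein of lymphatic vessels, was at 754 and 940 CPM in LEC against 15.4 and 26.8 CPM in BEC. Lyve1 was at 572 and 987 CPM against 31.7 and 41.6 CPM, and Flt4 at 169 and 273 CPM against 25.3 and 38.6 CPM. The chemokine gene Ccl21a went the other way, at 941 and 1657 CPM in LEC, 3012 and 5300 CPM in BEC and 10532 and 15736 CPM in stroma. With it, the 8 listed lymphatic markers summed to less in LEC, at 3764 and 5199 CPM, than in BEC, at 4540 and 6861 CPM. Markers of fibroblastic stroma were present in LEC as well, all 7 of 7 detected, at a summed 1353 CPM in sham and 1447 CPM in SAH, against 20915 and 19498 CPM in the stroma itself. Their part in the LEC values was not tested.

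LEC were split by the genes of the sinus walls. Cells with Ackr4, a chemokine scavenger of the outer wall (ceiling) of the subcapsular sinus, and none of the other markers numbered 1096 and 982, and are called Ackr4 cells here. Cells with Madcam1 or Coch, genes of the inner wall (floor), and neither Ackr4 nor Marco numbered 447 and 452. Cells with Marco, a scavenger receptor of medullary sinuses, and none of the others numbered 92 and 244. Another 160 and 359 cells had more than 1 kind of marker, and 569 and 525 had none. The share of Marco cells among LEC was 3.89% [3.15, 4.75] in sham and 9.52% [8.41, 10.7] in SAH, and that of Ackr4 cells was 46.4% [44.3, 48.4] and 38.3% [36.4, 40.2]. Subsets were set by all UMIs of a cell, and LEC had medians of 6872 UMIs in sham and 8193 in SAH. The part of this depth in the shares was not tested.

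Itga2b (ENSMUSG00000034664) lies on the minus strand of chr11:102453297-102470122 in the mouse build GRCm38 (mm10). Its partner gene Itgb3 (ENSMUSG00000020689) lies on the plus strand of the same chromosome at chr11:104608000-104670476, 2138 kb away. The other members are Itgav (ENSMUSG00000027087, chr2:83724397-83806916), Itga9 (ENSMUSG00000039115, chr9:118606690-118901003), Itgb1 (ENSMUSG00000025809, chr8:128685654-128733200), Itga5 (ENSMUSG00000000555, chr15:103344286-103366763) and Itga6 (ENSMUSG00000027111, chr2:71745616-71858416). All 7 are protein coding in the GENCODE annotation, and none overlaps another protein-coding gene. The RefSeq promoter table held 5 of the 7, without Itgb3 and Itga6. The stretch before the start of Itga2b is shown because this gene had the largest fold of the 7 members in LEC. It covers the 250 bases upstream of the start of the coding transcript on the minus strand, chr11:102469884-102470133 of GRCm38.p6 in RefSeq, read 5′ to 3′. In GENCODE, 180 of these bases also lie in an exon of a noncoding transcript of the gene.
Itga2b promoter: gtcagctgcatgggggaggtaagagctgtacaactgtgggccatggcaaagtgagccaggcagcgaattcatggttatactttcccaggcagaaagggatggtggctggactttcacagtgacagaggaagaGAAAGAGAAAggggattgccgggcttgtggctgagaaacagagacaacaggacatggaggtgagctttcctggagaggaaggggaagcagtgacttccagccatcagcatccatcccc

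The capitals mark a match, on either strand, to the letters GAAA, any 2 bases and GAAA again, a repeat found in interferon response elements, 118 to 109 bases before the start. These letters and the others searched were chosen after the sequence had been seen. Of 32851 mouse promoters of the same length, 2.98% held a match, and the windows of Itgav, Itga9, Itgb1 and Itga5 held none. The ETS core GGAAG occurred 4 times in the Itga2b window, at no place overlapping the marked letters, and at least once in 64.1% of all promoters. No match was found to the GATA letters AGATAA or TGATAA, the RUNX letters TGTGGT, the AP-1 letters TGANTCA or the kappa B letters GGGAC directly followed by TTTCC, which says only that these letters are not in this window.

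Itga2b was higher in LEC of the SAH library. The 2360 sham UMIs corresponded to 127 CPM [122, 132] and the 8311 SAH UMIs to 366 CPM [358, 374], a fold of 2.88 [2.75, 3.01]. The count intervals of the libraries did not overlap. Of 8867 genes with at least 10 CPM in LEC of 1 library, Itga2b had the 28th largest fold, and it was the 1 member of 7 at least 1.5-fold higher in SAH. None of the members was at least 1.5-fold lower. Of all genes measured, 5.97% were at least 1.5-fold higher and 3.0% at least 1.5-fold lower. Itgb3 at 1.45 and Itga5 at 1.44 were the members just under the limit. Under other processing settings the Itgb3 fold ranged from 1.15 to 1.57 and the Itga5 fold from 1.31 to 1.59, so each passed the limit in some. The median log2 fold was 0.10 over the members and -0.01 over all genes measured.

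**Figure D1:**
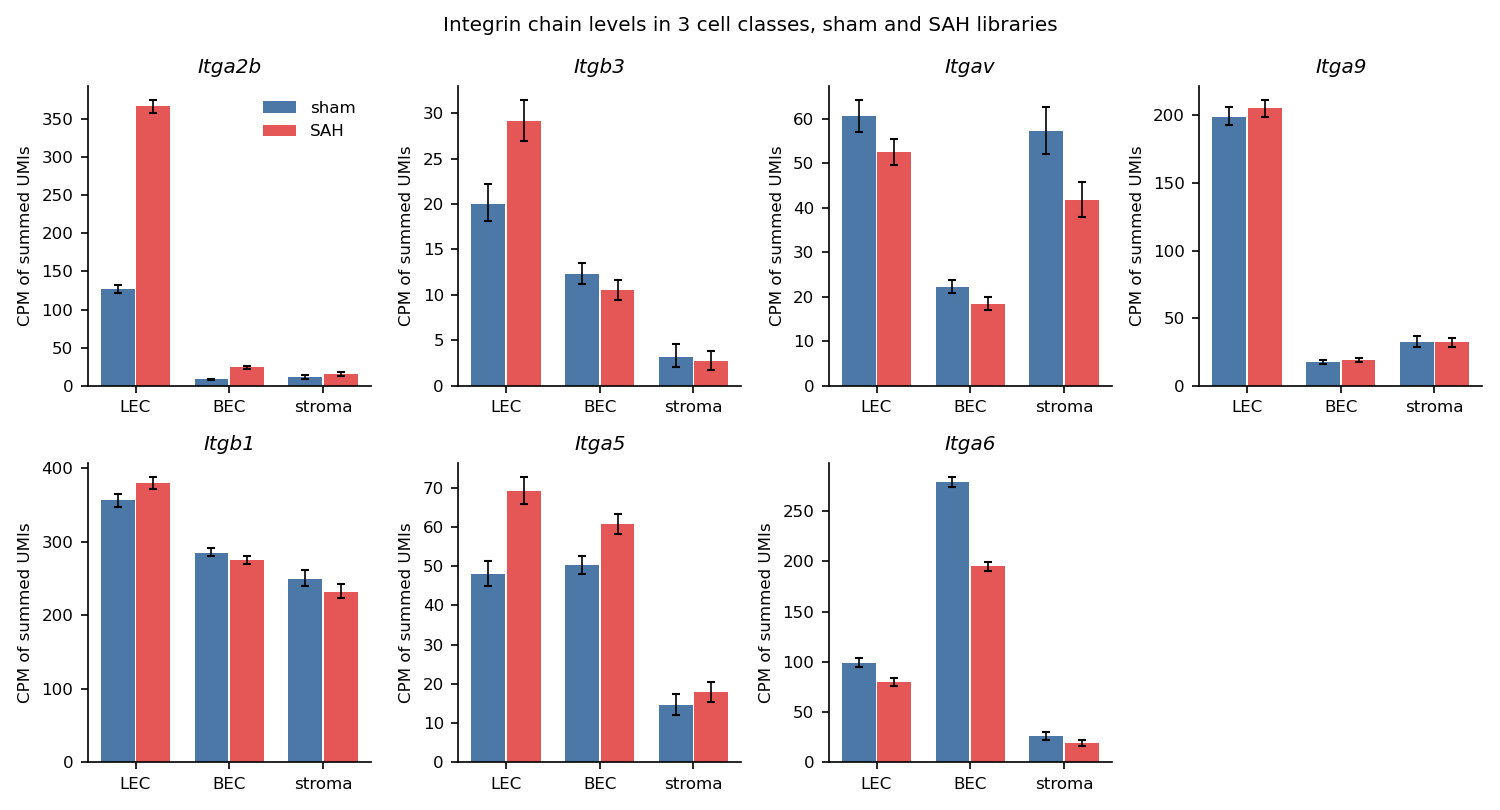
CPM of the summed UMIs (linear axes from 0, a scale for each gene) of the 7 chains in LEC, BEC and fibroblastic stroma; blue bars are the sham and red bars the SAH library, and whiskers are exact 95% counting intervals. Itga2b stands at 127 and 366 CPM in LEC and at no more than 24.3 CPM in the other classes, while Itga6 is highest in BEC, at 279 CPM in sham and 195 CPM in SAH.

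In BEC and stroma, Itga2b was low. In BEC it was at 8.54 CPM [7.62, 9.55] in sham and 24.3 CPM [22.7, 25.9] in SAH, and in fibroblastic stroma at 11.3 CPM [9.12, 13.9] and 15.6 CPM [13.3, 18.2]. The order of these classes differed between the libraries: BEC stood at 0.753 [0.594, 0.963] of the stromal level in sham and at 1.56 [1.32, 1.84] times that level in SAH. The fold in BEC was 2.84 [2.49, 3.24], close to that in LEC, and the fold in stroma was 1.38 [1.06, 1.80]. The BEC level was 6.72% of the LEC level in sham and 6.63% in SAH. For Lyve1, a hyaluronan receptor of lymphatic endothelium, the BEC level was 5.54% and 4.21% of the LEC level, and for Mmrn1 2.04% and 2.85%. The 10 BEC with most Itga2b held 16.7% of its BEC UMIs in sham and 11.6% in SAH. Itga9, at 8.84% and 9.27%, and the lymphatic receptor gene Flt4, at 15.0% and 14.1%, had higher shares than Itga2b. The part of free RNA in the BEC values was not tested. Kept barcodes outside every class, 514 in sham and 495 in SAH with medians of 2290 and 2337 UMIs, had no Prox1 UMI and held Itga2b at 90.0 and 125 CPM. LEC of the same libraries stood at 127 and 366 CPM. The 10 highest of the barcodes outside every class held 58.9% and 50.0% of their Itga2b UMIs. Fibroblastic markers summed to 4848 and 6602 CPM there, BEC markers to 3104 and 3253 CPM and myeloid markers to 1365 and 1254 CPM. The 4 markers of medullary LEC, Lyve1 among them, summed to 616 and 547 CPM, and the 3 erythroid markers to 5153 and 1127 CPM. The part of each in this Itga2b level was not tested.

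Shares of cells with a UMI were compared after each cell was thinned to 2000 UMIs, which left out 40 sham and 53 SAH LEC, 552 and 626 BEC, and 107 and 84 stromal cells. An Itga2b UMI was found in 16.4% [15.0, 18.0] of sham LEC and 38.5% [36.6, 40.4] of SAH LEC. In full-depth cells the shares were 32.9% and 60.9%. Among thinned BEC the shares were 1.32% [1.04, 1.64] and 3.95% [3.46, 4.48], and among thinned stroma 1.82% [1.20, 2.66] and 2.84% [2.07, 3.80]. Full-depth BEC, with medians of 4602 and 4754 UMIs, gave 4.00% and 9.58%. The share in LEC was thus well above that in either other class in both libraries.

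Within LEC the Itga2b level followed the sinus subsets. In the sham library it was lowest in Ackr4 cells, at 21.3 CPM [18.3, 24.6], intermediate in Madcam1 or Coch cells, at 244 CPM [229, 260], and highest in Marco cells, at 445 CPM [394, 501]. Cells with more than 1 marker kind, at 226 CPM [204, 249], were not separable from Madcam1 or Coch cells by their intervals, and cells with no subset marker stood at 138 CPM [126, 150]. The SAH library kept the ends of this order, from 126 CPM [119, 134] in Ackr4 cells through 540 CPM [518, 563] in Madcam1 or Coch cells to 971 CPM [929, 1015] in Marco cells. Cells with more than 1 kind and with none stood between, at 444 CPM [424, 466] and 333 CPM [314, 352]. Marco cells exceeded Ackr4 cells 20.9-fold [17.2, 25.4] in sham and 7.69-fold [7.15, 8.28] in SAH. Marco cells exceeded Madcam1 or Coch cells by nearly the same factor in both libraries, 1.82 [1.59, 2.09] and 1.80 [1.69, 1.91].

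**Figure D2:**
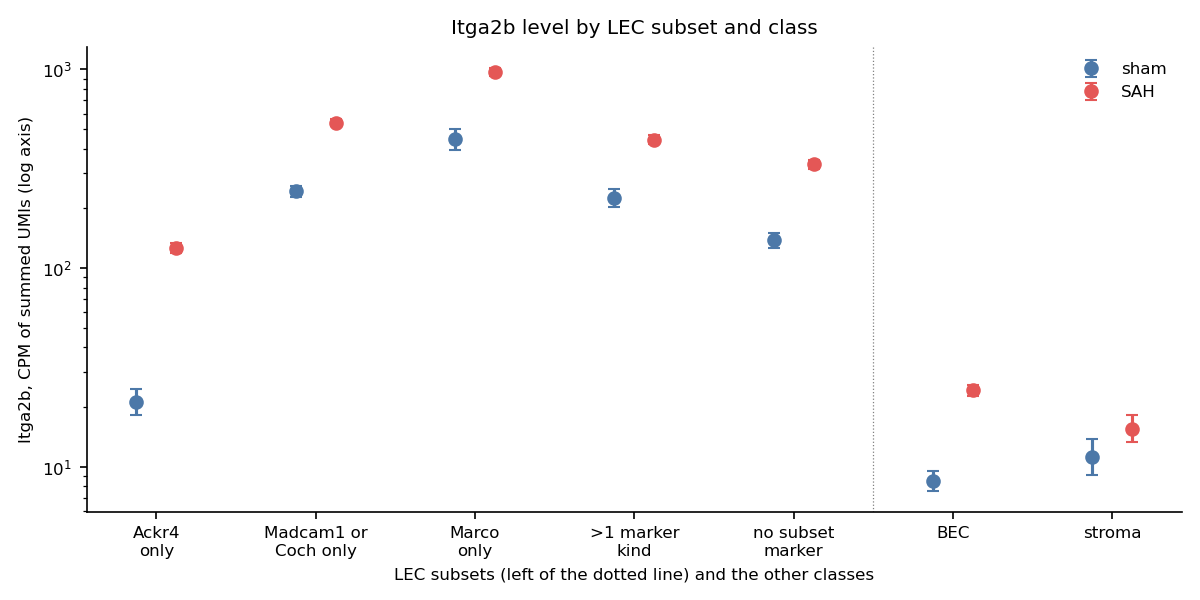
Itga2b CPM (log axis) in the 5 LEC subsets, left of the dotted line, and in BEC and stroma; points are the sham (blue) and SAH (red) libraries with exact 95% counting intervals. The gap between the libraries is widest in Ackr4 cells, 21.3 against 126 CPM, and narrowest in stroma, 11.3 against 15.6 CPM.

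The largest fold of Itga2b was in Ackr4 cells, the subset with the lowest level. It was 5.93 [5.06, 6.98] there, 14th of 8777 genes. It was 2.21 [2.05, 2.39] in Madcam1 or Coch cells, 2.18 [1.92, 2.49] in Marco cells, 1.97 [1.76, 2.20] in cells with more than 1 kind and 2.42 [2.18, 2.68] in cells with no subset marker. The interval in Ackr4 cells did not overlap that of any other subset, although no replicate tests this difference. Markers of other cells also differed between the libraries in Ackr4 cells: the 3 erythroid markers, all detected, summed to 8.68 CPM in sham and 279 CPM in SAH, and the 4 myeloid markers, all detected, to 7.73 and 23.4 CPM. Ptprc, which encodes CD45, had 10 and 24 UMIs there. In Ackr4 cells with Pecam1 and without Dcn, Col3a1 or Ptprc, the Itga2b fold was 5.92. That gate acts on several genes at once, and the part of each marker kind in the Itga2b fold was not tested. When subsets were assigned by the highest marker sum instead, the fold in cells of mixed kind was 1.44, under the 1.5-fold limit. A stricter gate for Ackr4 cells, added after the values had been seen, asked for at least 3 Ackr4 UMIs, no Lyve1 UMI and no doublet call. It left 604 sham and 488 SAH cells with 15.5 and 95.6 CPM, a fold of 6.18 [4.77, 8.13]. With the SAH subsets reweighted to the sham shares, Itga2b in SAH LEC was 307 CPM and the fold 2.41.

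The distribution over single cells showed the same contrast. Of sham Ackr4 cells, 88.6% had no Itga2b UMI at full depth and 0.0912% had 6 or more. Of SAH Ackr4 cells, 52.7% had none and 4.28% had 6 or more. The median depth of Ackr4 cells was 6799 UMIs in sham and 8027 in SAH. In Marco cells, 19.6% of sham and 63.1% of SAH cells held 6 or more UMIs, and the highest cell held 17 and 31. After thinning, the share with a UMI was 3.96% [2.88, 5.29] and 21.9% [19.3, 24.6] in Ackr4 cells, 35.7% [31.2, 40.3] and 57.5% [52.8, 62.2] in Madcam1 or Coch cells, and 45.5% [34.8, 56.4] and 76.7% [70.8, 81.9] in Marco cells. In each of these subsets the SAH share lay above the sham interval.

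**Figure D3:**
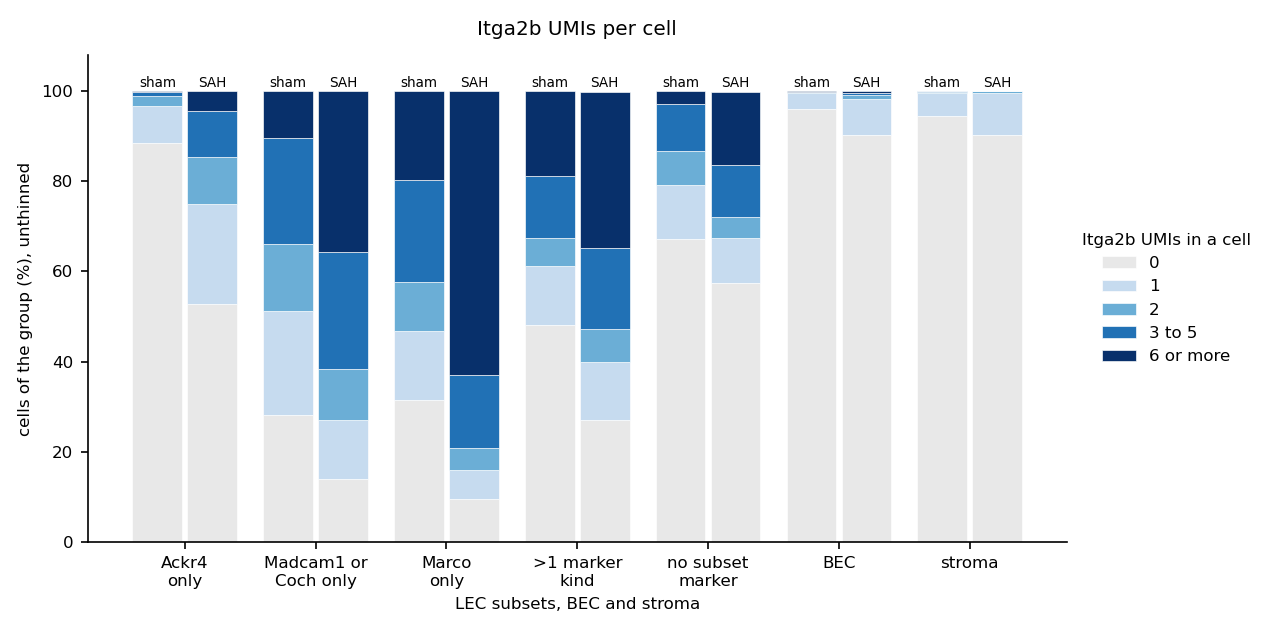
Share of cells (%, full depth) by the number of Itga2b UMIs in the cell, from 0 (light grey) to 6 or more (darkest blue), with the sham bar left of the SAH bar in each LEC subset, BEC and stroma. Cells with 6 or more UMIs make up 19.6% of sham and 63.1% of SAH Marco cells against 0.0474% and 0.324% of BEC and 0% of stroma.

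Platelets carry Itga2b RNA and can bind podoplanin, so their markers were read in the same LEC. Of 10 markers, 8 were detected in each library and Gp6 and Tubb1 were at 0. Their summed level was 72.8 CPM in sham and 71.8 CPM in SAH, nearly all of it from Pf4 and Clec1b. Pf4, a platelet chemokine, was lower in SAH, at 62.2 against 33.0 CPM, and reached 200 and 118 CPM in Madcam1 or Coch cells. Clec1b, the podoplanin receptor CLEC-2, was higher, at 8.89 against 36.8 CPM, with 66.3 and 218 CPM in Marco cells. The other defining genes were near 0 in UMIs: Ppbp had 6 and 2, Gp9 3 and 3, Gp1bb 10 and 7, Gp1ba 9 and 33, Gp5 2 and 1, and Treml1 1 and 1. Pf4 itself had a fold of 0.530 [0.483, 0.582] and Clec1b of 4.14 [3.50, 4.92]. Leaving out the 429 sham and 379 SAH LEC with a UMI of Pf4, Ppbp, Gp9, Gp1bb or Gp1ba gave 104 and 350 CPM of Itga2b and a fold of 3.38 [3.19, 3.57]. This removed 264 of the 447 sham and 207 of the 452 SAH Madcam1 or Coch cells. Doublet calls covered 13.0% of sham and 15.7% of SAH LEC, and without them the fold was 2.82.

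Itgb3, the beta3 chain that completes the fibrinogen receptor, gave few UMIs in the 3 classes. In LEC it was at 20.0 CPM [18.1, 22.2] in sham and 29.1 CPM [26.9, 31.4] in SAH, a fold of 1.45 [1.28, 1.65]. In BEC it was at 12.3 CPM [11.2, 13.5] and 10.5 CPM [9.46, 11.6], a fold of 0.854 [0.743, 0.980]. The stroma, with 25 and 29 UMIs, was below 10 CPM in both libraries. Its order over the subsets resembled that of Itga2b. Marco cells were highest at 64.7 and 67.2 CPM, Madcam1 or Coch cells stood at 23.2 and 29.8 CPM, and Ackr4 cells were lowest at 10.7 and 18.5 CPM.

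The Itgb3 fold in LEC was carried by fewer subsets than that of Itga2b. It was 1.73 [1.33, 2.26] in Ackr4 cells and 1.04 [0.726, 1.52] in Marco cells, and the intervals of the 4 subsets other than Ackr4 cells included 1. With sham subset shares the fold in LEC was 1.26. After thinning, an Itgb3 UMI was found in 4.26% [3.48, 5.16] of sham and 5.14% [4.31, 6.08] of SAH LEC, intervals that overlap. At this depth no difference in the share of cells was detectable.

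Itgav, the alphav chain of vitronectin-type receptors, was lower in SAH in LEC, BEC and stroma. In LEC it was at 60.6 CPM [57.1, 64.2] and 52.6 CPM [49.6, 55.6], a fold of 0.868 [0.799, 0.942], but of 1.01 without cells with a platelet marker UMI. Leaving these out removed 264 of 447 sham and 207 of 452 SAH Madcam1 or Coch cells, which also changed the mix of subsets. In BEC Itgav was at 22.3 and 18.5 CPM (0.828 [0.746, 0.917]), and in stroma at 57.3 and 41.7 CPM (0.728 [0.637, 0.831]). LEC and stroma were not separable in sham, with a ratio of 1.06 [0.947, 1.18], whereas in SAH the ratio was 1.26 [1.13, 1.41]. Within LEC the highest level was in Madcam1 or Coch cells, at 105 and 77.1 CPM, where the fold was 0.734 [0.633, 0.851] and 0.949 in thinned cells. Ackr4 cells, at 41.7 and 42.4 CPM, showed no difference beyond counting error (1.02 [0.876, 1.18]). In cells with more than 1 marker kind the fold was 0.648 [0.520, 0.809], but 0.919 when subsets were assigned by the highest marker sum. Mural cells, the contractile cells around vessels, had 81.4 and 43.0 CPM from 99 and 64 UMIs.

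Itga9, the alpha9 chain, was higher in LEC than in the other classes, at nearly the same level in both libraries. LEC were at 199 CPM [193, 206] in sham and 205 CPM [199, 211] in SAH, a fold of 1.03 [0.986, 1.07]. BEC were at 17.6 and 19.0 CPM and stroma at 32.5 and 32.1 CPM. LEC exceeded BEC 11.3-fold [10.4, 12.3] in sham and 10.8-fold [9.96, 11.7] in SAH. Marco cells were highest, at 302 and 309 CPM, while Madcam1 or Coch cells, at 182 and 191 CPM, stood at 0.900 [0.825, 0.982] of the Ackr4 cells in sham and 0.972 [0.893, 1.06] in SAH. The sham and SAH intervals overlapped in each subset except cells with no subset marker, where the fold was 0.824 [0.735, 0.923].

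Itgb1, the beta1 chain shared by many alpha chains, was present in all classes. It was at 356 CPM [347, 364] and 380 CPM [372, 388] in LEC, at 285 CPM [280, 291] and 275 CPM [269, 280] in BEC, and at 249 CPM [239, 261] and 232 CPM [223, 242] in stroma. The folds were 1.07 [1.03, 1.10], 0.963 [0.937, 0.990] and 0.932 [0.878, 0.989], above 1 in LEC and below 1 in the other classes, and all close to it. Within LEC, Ackr4 cells were highest in both libraries, at 407 and 445 CPM, and Madcam1 or Coch cells lowest, at 279 and 298 CPM. The subset with least Itga2b thus had the most Itgb1.

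Itga5, the alpha5 chain, was higher in SAH in both endothelial classes. In LEC it was at 48.0 CPM [44.9, 51.3] and 69.3 CPM [65.9, 72.8], a fold of 1.44 [1.33, 1.57]. In BEC it was at 50.2 CPM [47.9, 52.5] and 60.7 CPM [58.3, 63.3], a fold of 1.21 [1.14, 1.29]. The sham levels of LEC and BEC did not differ beyond counting error, with a ratio of 0.958 [0.883, 1.04]. In SAH this ratio was 1.14 [1.07, 1.22]. In stroma, at 14.6 and 17.9 CPM, the interval of the fold of 1.23 [0.969, 1.56] included 1. The 5 LEC subsets lay close together in sham, between 47.0 and 50.4 CPM, and spread to 58.4 to 84.2 CPM in SAH, highest in Marco cells. The fold in Marco cells was 1.73 [1.17, 2.65], from 30 and 174 UMIs, and it was 1.12 in thinned cells. Among BEC, cells with Chst4, a sulfotransferase of high endothelial venules, had 67.3 and 67.7 CPM, whereas cells with neither Chst4 nor the arterial gene Gja5 had 46.9 and 58.8 CPM.

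Itga6, the laminin-binding alpha6 chain, was lower in SAH and was highest in BEC. In BEC it was at 279 CPM [274, 284] in sham and 195 CPM [190, 199] in SAH, a fold of 0.698 [0.677, 0.719] at percentile 4.00 of 8451 genes, just short of the 1.5-fold limit. In LEC it was at 99.3 and 80.1 CPM (0.807 [0.756, 0.861]), and in stroma at 26.1 and 19.3 CPM (0.741 [0.608, 0.902]). Among LEC, Ackr4 cells stood at 122 and 102 CPM and Madcam1 or Coch cells at 35.1 and 31.5 CPM. The cells with least Itga2b among the 3 marked subsets thus had the most Itga6. The fold was 0.833 [0.761, 0.912] in Ackr4 cells and 0.816 [0.716, 0.930] in cells with no subset marker. Its interval included 1 in Madcam1 or Coch cells (0.898 [0.703, 1.15]), Marco cells (0.826 [0.576, 1.21]) and cells with more than 1 kind (0.964 [0.767, 1.22]). In Madcam1 or Coch cells it was 1.34 when thinned and 1.62 for LEC with Pecam1 and without Dcn, Col3a1 or Ptprc. After thinning, 40.9% [39.6, 42.2] of sham and 31.8% [30.6, 33.0] of SAH BEC had an Itga6 UMI. In LEC these shares were 16.3% [14.8, 17.8] and 13.8% [12.4, 15.2], intervals that overlap. The lower level held in BEC with Chst4, at 175 and 123 CPM (0.704 [0.639, 0.776]), and in BEC with neither Chst4 nor Gja5, at 299 and 209 CPM (0.699 [0.677, 0.722]).

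**Figure D4:**
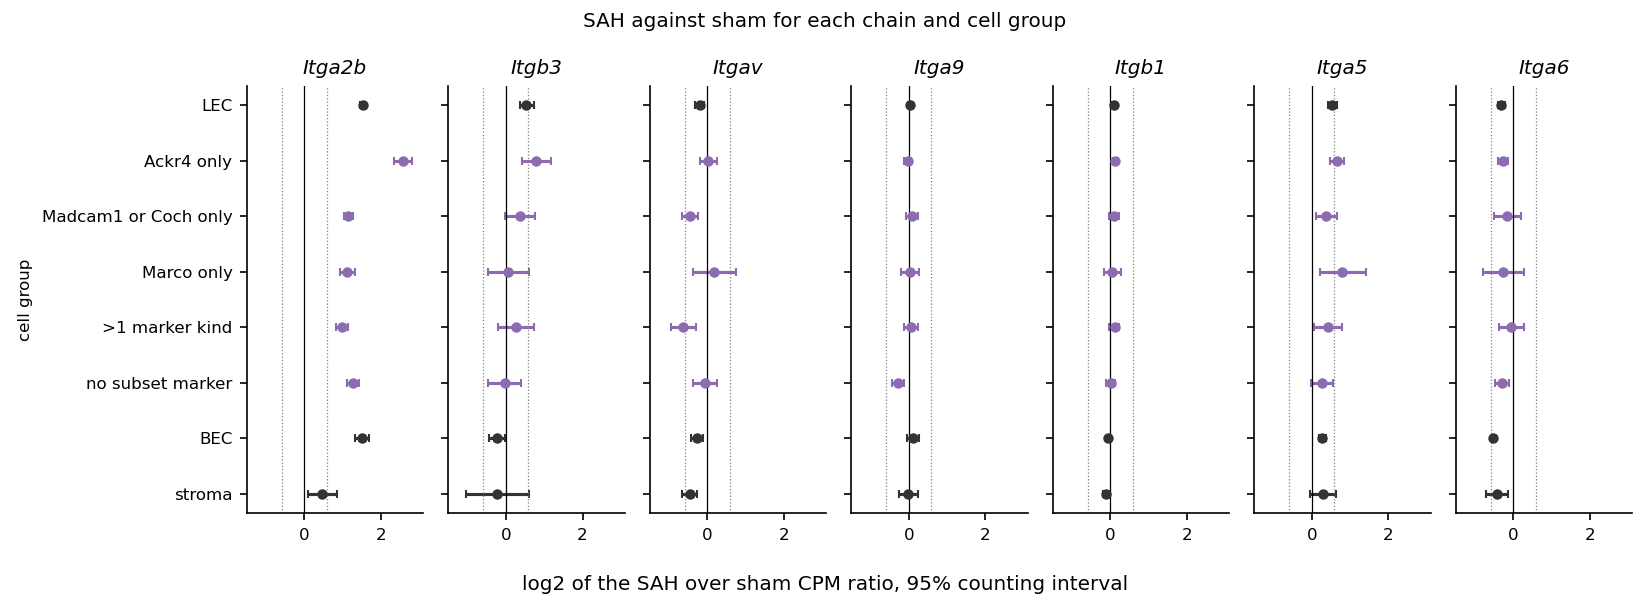
Log2 of the SAH over sham CPM ratio (points) with its 95% counting interval (bars) for each chain in LEC, BEC and stroma (dark) and the 5 LEC subsets (purple); the solid line marks no difference and dotted lines mark 1.5-fold. Itga2b lies right of the upper dotted line in LEC, in each LEC subset and in BEC, and Itga9 and Itgb1 lie near the solid line.

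Counts of members past 1.5-fold differed between the subsets. Ackr4 cells had 3 of 7 members at least 1.5-fold higher (Itga2b, Itgb3 and Itga5), where 6.27% of all genes were higher and 2.86% lower. With LEC required to hold Pecam1 and no Dcn, Col3a1 or Ptprc, the folds of Itgb3 and Itga5 there were 1.44 and 1.37, and Itga2b alone passed. Marco cells had 2 higher (Itga2b and Itga5), where 15.9% of all genes were higher and 13.5% lower. Madcam1 or Coch cells had Itga2b alone, beside 9.05% of genes higher and 5.91% lower. Cells with no subset marker also had Itga2b alone, beside 8.37% and 7.37%. Cells with more than 1 kind had Itga2b higher and Itgav lower, beside 9.67% and 7.51%. In BEC, Itga2b was the 1 member past the limit, beside 5.92% and 2.31% of all genes. The share of genes past the limit was thus largest in the smallest subset. In stroma 0 of the 6 members with at least 10 CPM passed it, where 5.96% of genes were higher and 7.10% lower.

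Chains were also read in the same cells. In thinned LEC, 382 sham and 965 SAH cells had an Itga2b UMI. An Itgb3 UMI was found in 8.12% [5.58, 11.3] of cells with an Itga2b UMI and 3.50% [2.73, 4.42] of cells without in sham, and in 7.88% and 3.43% in SAH. Itga9 was likewise more frequent beside Itga2b, in 42.9% against 30.7% in sham and in 42.2% against 26.0% in SAH. Itga6 was less frequent, in 8.38% [5.80, 11.6] against 17.8% [16.1, 19.6] in sham and in 8.29% against 17.2% in SAH. Itgb1 did not differ beyond counting error, with 46.9% against 49.0% and 51.9% against 53.1%. Within single subsets the Itgb3 shares beside and without Itga2b had overlapping intervals. In Ackr4 cells they were 4.65% [0.568, 15.8] and 1.82% [1.10, 2.83] in sham and 2.34% [0.763, 5.37] and 2.88% [1.81, 4.33] in SAH. In Marco cells they were 12.5% [4.19, 26.8] and 10.4% [3.47, 22.7] in sham and 16.0% [11, 22.2] and 5.45% [1.14, 15.1] in SAH. At this depth most cells with 1 chain showed no UMI of the other, which does not show that the partner is absent. The Itga6 share was lower beside Itga2b in each subset. Its intervals were apart only in SAH, in Madcam1 or Coch cells (3.12% against 11.6%) and cells with no subset marker (8.11% against 24.7%). The Itga9 intervals were apart only in cells with no subset marker, at 40.8% against 23.8% in sham and 50.0% against 14.2% in SAH.

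**Figure D5:**
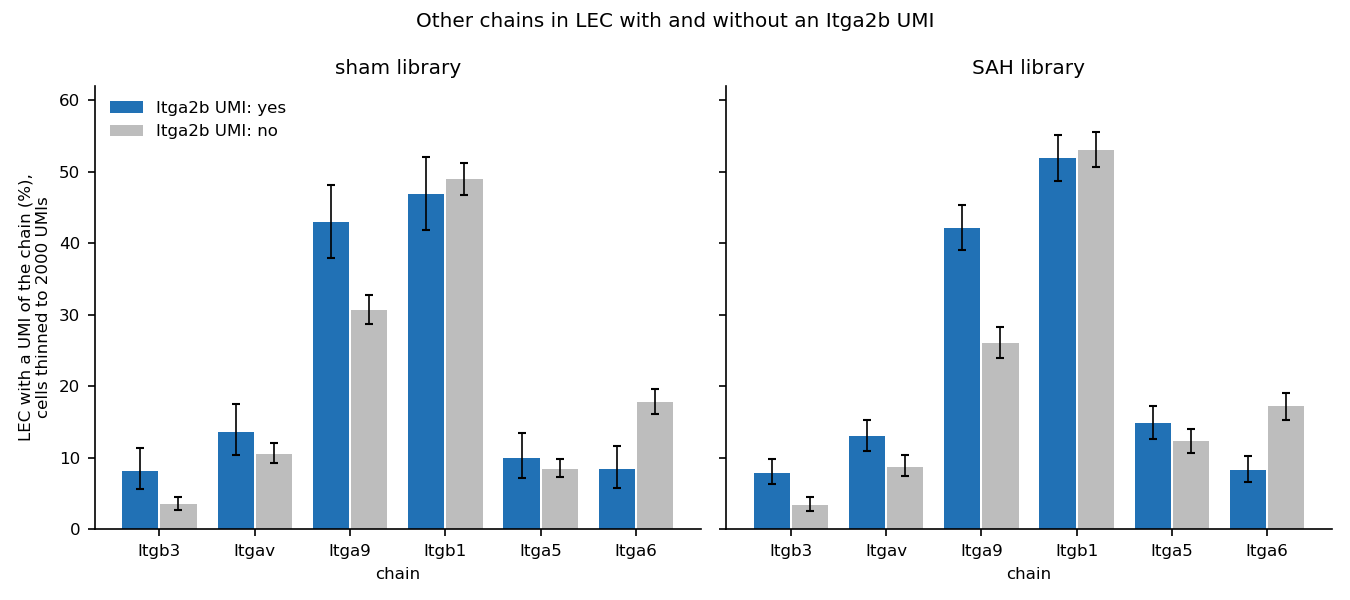
Share of LEC thinned to 2000 UMIs with a UMI of each other chain (%), in cells with (blue) and without (grey) an Itga2b UMI, for the sham (left) and SAH (right) libraries; whiskers are exact 95% binomial intervals. Itgb3 and Itga9 are more frequent in cells with Itga2b and Itga6 less frequent, in both libraries.

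Genes were ranked by how closely their levels followed Itga2b. Over 14 sums (5 LEC subsets, BEC and stroma in both libraries), the highest Pearson correlations of log2(CPM + 1) among 8393 genes were those of Slc16a12 (0.965), Dnah6 (0.964), Gm43194 (0.960), Clec4g (0.958), Plek (0.957), Fndc3a (0.952), Tspan7 (0.951) and Sema3a (0.945). The sums share 2 libraries, so the values describe the pattern and carry no test. Clec4g is a lectin of sinusoidal endothelium and Sema3a a guidance ligand. Among the members Itgb3 reached 0.888 and Itga9 0.843, whereas Itga6 was at -0.193. Clec4g stood at 27.3 and 39.7 CPM in LEC against 0.685 and 2.00 CPM in BEC, and Sema3a at 99.4 and 188 CPM against 2.85 and 8.07 CPM.

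A second ranking used single LEC. Among 5249 genes, the genes most enriched in LEC with an Itga2b UMI in both libraries were Marco, Mrc1, Flrt3, C1ql3, Fzd1, Lyve1, Mmp9 and Ctss. Genes that set the classes and subsets were left out of the first ranking but not of this one. Marco is such a gene, so its place restates the high Itga2b level of the Marco cells. Marco was found in 19.1% of sham LEC with Itga2b and 2.68% of those without, and in 23.7% and 4.02% in SAH. Lyve1 was found in 70.9% and 23.5%, and in 66.5% and 22.8%. The least frequent genes beside Itga2b were Ntn1, Cdh13, Fam167b and Ackr3. Ntn1, the guidance ligand netrin-1, was in 1.05% against 9.94% of sham LEC and in 3.42% against 12.0% of SAH LEC.

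Of the 19 remaining integrin chains, 3 reached 10 CPM in LEC and 0 passed 1.5-fold: Itgb4, the partner of alpha6, at 45.1 and 66.4 CPM (1.47 [1.35, 1.60]), Itga1, a collagen-binding chain, at 55.7 and 76.8 CPM (1.38 [1.28, 1.49]), and Itga3, a laminin-binding chain, at 23.2 and 30.9 CPM (1.33 [1.18, 1.51]). Their median log2 fold was 0.46, beside -0.01 over all genes measured. Itga1 was at 93.0 and 121 CPM in BEC and at 53.8 and 58.9 CPM in stroma. In BEC 5 reached that level and 2 of them, Itgb4 (1.56 [1.46, 1.66]) and Itga3 (1.5 [1.37, 1.65]), passed. In stroma 2 were measured, Itga1 and Itgb5 (52.4 and 42 CPM), and 0 passed. Itgb4 and Itga6, the chains of alpha6beta4, thus differed in opposite directions in BEC. The leukocyte chain Itgb2 had 15 and 40 UMIs in LEC, and Itgb6 had 0 in both libraries.

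Ligands of these receptors were less uniform. Of 24 listed, 18 were measured in LEC, with 5 at least 1.5-fold higher and 4 at least 1.5-fold lower and a median log2 fold of 0.08. Over all genes in LEC, 5.97% were higher and 3.0% lower. Fn1, encoding fibronectin, was lower at 354 against 146 CPM (0.412 [0.395, 0.430]), and Thbs1, the adhesive glycoprotein thrombospondin-1, was lower at 270 against 106 CPM (0.393 [0.374, 0.413]). Vwf, the platelet-binding von Willebrand factor, was higher at 7.70 against 17.4 CPM (2.26 [1.86, 2.75]). In stroma Fn1 was also lower, at 696 against 325 CPM. BEC had 5 of 19 ligands higher and 2 lower, beside 5.92% and 2.31% of all genes. Stroma had 4 of 18 higher and 3 lower, beside 5.96% and 7.10%.

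Adaptors and activators that link integrins to the cytoskeleton mostly lay within 1.5-fold. Of 25 listed, 22 were measured in LEC, with 2 higher, 0 lower and a median log2 fold of 0.09, beside 5.97% higher and 3.0% lower over all genes. Lims2, an adaptor of the kinase ILK, was at 10.5 and 23.2 CPM (2.21 [1.87, 2.62]). Tln1, encoding talin-1, which binds beta tails, was at 137 and 208 CPM (1.51 [1.44, 1.59]). Ilk was next, at 69.9 and 91.4 CPM (1.31 [1.22, 1.40]). BEC had 2 of 21 higher and 0 lower, beside 5.92% and 2.31% of all genes, and stroma 1 of 20 in each direction, beside 5.96% and 7.10%.

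The RANK axis was read because Itga2b marks LEC responsive to RANKL. Of 7 genes, 4 were measured in LEC and 1 was at least 1.5-fold higher, where 5.97% of all genes were. It was Ltbr, the lymphotoxin beta receptor, at 39.0 and 59.7 CPM (1.53 [1.39, 1.67]). Ltb was next, with a fold of 1.19 [1.15, 1.24] in LEC. It passed the 1.5-fold limit in BEC (1.81 [1.65, 1.97]) and in stroma (1.78 [1.54, 2.07]). The fold of Traf6 in LEC was 1.14 [0.960, 1.36], with an interval that included 1. Tnfrsf11a, encoding RANK, was at 117 and 107 CPM (0.917 [0.865, 0.972]) and was highest in Ackr4 cells, at 163 and 156 CPM. RANK was found in 18.3% of sham LEC with an Itga2b UMI and 19.8% of those without, and in 17.8% and 19.3% in SAH. These shares pool the subsets. In Ackr4 cells they were 30.2% and 26.1% in sham and 30.8% and 26.7% in SAH. In Madcam1 or Coch cells they were 16.4% and 12.5%, and 15.2% and 10.1%. Cells with no subset marker also had the higher share beside Itga2b in both libraries. Marco cells and cells with more than 1 kind had it in sham but not in SAH. The intervals overlapped in every subset. Tnfsf11, encoding RANKL, was measured in stroma, at 106 CPM in sham and 56.3 CPM in SAH (0.529 [0.476, 0.588]). The fold of Itga2b was above 1 in LEC and that of Tnfsf11 below 1 in stroma, and a link between them was not tested.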

How the data were processed

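The deposited files hold unnormalized UMI counts, whole numbers, in 1 gene-by-barcode matrix for each library. The authors' counts came from Cell Ranger 5.0 with STAR on mm10, and Seurat 3.0.2 is also named, per the submitters' processing notes. The matrix headers name cellranger 5.0.0. Use of introns, strand setting and annotation release are not given in the sources used here. Each cDNA was tagged at its 5′ end, per the labels.

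Counts of entries with 1 symbol were summed. Barcodes with at least 500 genes and at most 10% mitochondrial UMIs were kept, and classes were set by raw UMIs of the marker genes named in the text. Doublets called by Scrublet (expected rate 0.1, scanpy 1.11.5) were kept, and their removal was an alternative. Levels are CPM of summed counts with exact Poisson intervals, folds have exact conditional binomial intervals and shares Clopper-Pearson intervals, at 95%. Genes counted for the 1.5-fold limit had at least 10 CPM in 1 library. All intervals cover counting error only. For the likeness ranking 1 CPM was added and genes had to reach 20 CPM in 1 sum, and for the ranking over cells a UMI in at least 5% of thinned LEC of both libraries. List medians used 0.5 added counts. Named genes were all members, the 8 most like Itga2b by each ranking, the 3 largest absolute log2 folds of each pathway list in LEC and the platelet markers. Other genes were named after their values were seen. The members and lists were chosen with earlier results of these data known. Folds were checked on simulated counts. Trbc2 had no entry, so T and NK cells were set apart by the other 3 markers. Alternatives were other cell filters, gates, scalings (TMM in edgeR 4.0.16), weightings, subset splits and thinnings. Python 3.11.15, numpy 2.4.6, scipy 1.17.1, pandas 2.3.3, anndata 0.12.19, matplotlib 3.10.9 and R 4.3.3 were used. Protein sequences were not used here.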

Additional observations from a re-analysis of the deposited data

Results flagged for a closer look

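Of the 7 chains, 2 had folds on opposite sides of 1 in a pair of classes, with both counting intervals clear of 1. The Itgb3 fold was 1.45 in LEC and 0.854 in BEC, a ratio of folds of 1.70. The Itgb1 fold was 1.07 in LEC, 0.963 in BEC and 0.932 in stroma, with ratios of 1.11 against BEC and 1.15 against stroma. In cells thinned to 2000 UMIs the Itgb3 fold in BEC was 1.01, and with cells weighted equally the Itgb1 fold in BEC was 1.00, so neither stayed below 1. The Itgb3 fold in LEC was 1.15 for LEC with Pecam1 and without Dcn, Col3a1 or Ptprc. None of these differences was tested, since each group is 1 library.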

How the results depend on the processing

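No paired analysis was possible because each group is 1 library. Each library alone decides every fold, and leaving one out leaves no comparison. Of 662 alternative values of 56 folds, 641 stayed on the same side of the 1.5-fold limit, 611 kept the direction and 0 reversed a fold past the limit. The Itga2b fold in LEC ranged from 2.41 to 3.38. It was 2.41 with sham subset shares, 2.73 for LEC with Pecam1 and without Dcn, Col3a1 or Ptprc, 3.05 with cells weighted equally, 3.07 in cells thinned to 2000 UMIs and 3.38 without cells with a platelet marker UMI, the last added after seeing the data. In Ackr4 cells it was 7.50 when thinned. In Madcam1 or Coch cells it was 2.03 without platelet marker cells. In Marco cells it was 2.62 with at most 5% mitochondrial UMIs and 1.53 under the Pecam1 gate. In cells with more than 1 kind it was 1.65 under that gate and 1.44 by highest marker sum. In cells with no subset marker it was 2.72 with at most 5% mitochondrial UMIs and 2.87 with Prox1 at 2 or more UMIs. In BEC it was 3.44 with cells weighted equally. The cause of these shifts was not tested. Leaving out barcodes found in both libraries was also added after seeing the data. Low counts limit some folds: sham Marco cells held 30 Itga5, 36 Itgav and 40 Itgb3 UMIs.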

Other observations

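Irf7, an interferon-induced transcription factor, had a larger fold than Itga2b in LEC, at 67.3 CPM in sham and 383 CPM in SAH (5.69 [5.36, 6.04]). In thinned SAH LEC an Irf7 UMI was found in 48.9% [45.7, 52.1] of cells with an Itga2b UMI and 45.3% [42.8, 47.9] of cells without. In Ackr4 cells the values were 47.7% [40.8, 54.6] and 47.1% [43.5, 50.7], and in sham LEC 11.5% and 12.2%. Irf7 in BEC was at 97.4 and 450 CPM, where Itga2b was at 8.54 and 24.3 CPM.

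Clec1b, read as a platelet marker, was found more often beside Itga2b. A UMI was found in 11.8% [9.84, 14] of thinned SAH LEC with Itga2b and 2.46% [1.75, 3.36] of those without, and in 3.66% and 0.927% in sham. Pf4 was also more frequent there over all LEC, in 12.3% against 7.05% in sham and 6.94% against 4.02% in SAH. Within Madcam1 or Coch cells neither was. Pf4 was in 18.9% [13.1, 25.8] of sham cells with Itga2b and 32.4% [27.0, 38.2] of cells without, and in 18.4% [13.8, 23.7] and 22.8% [17.0, 29.4] in SAH. Clec1b was in 0 of 159 and 1 of 287 of these sham cells and in 1.56% and 2.12% of these SAH cells. In sham Ackr4 cells Pf4 was in 6.98% [1.46, 19.1] of 43 cells with Itga2b and 0.862% [0.395, 1.63] of cells without. In SAH Ackr4 cells the values were 0.467% and 0.393%. Clec1b was in 2.33% and 0.287% of sham Ackr4 cells with and without Itga2b, and in 3.27% and 1.70% in SAH. Each of these pairs in Ackr4 cells had overlapping intervals. In Madcam1 or Coch cells the sham Pf4 intervals did not overlap, Pf4 being less frequent beside Itga2b. The other pairs in Madcam1 or Coch cells had overlapping intervals. Neither gene was compared in this way within Marco cells.

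Mural cells held Itga2b at 27.1 CPM in sham and 41.7 CPM in SAH, from 33 and 62 UMIs, with 75.8% and 61.3% of them in 10 cells. B cells held 1 and 13 Itga2b UMIs.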
